A study of Mus musculus with 8 samples.

Results

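The circadian clock genes described here are 10 genes, the activators Arntl (also named Bmal1) and Npas2, the repressors Per1, Per2, Per3, Cry1 and Ciart, the nuclear receptors Nr1d1 and Nr1d2, and the output factor Dbp. They were chosen by name and found on the array through the RefSeq accessions of its probes. All 10 had a probe, 18 probes in all, among 45616 genes and unnamed transcripts. Of these, 28992 were bright enough to be tested, and 9 of the 10 clock genes were among them. The exception was Npas2.

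Lung RNA was measured in 8 female BALB/c mice, 2 in each of 4 groups, with 1 single-color array per mouse. The mice were bought at 4 weeks of age, housed for 2 weeks and then fed for 70 days. NT mice ate standard feed, received no allergen and are described as non-treated, with no sham injection or sham inhalation mentioned. Ctrl-F mice ate the same feed and were sensitized by intraperitoneal injection of ovalbumin (OVA) adsorbed to aluminum oxide gel. They were then challenged with inhaled OVA daily until the day before collection. Against NT, the allergen, the gel, the injections and the daily inhalation sessions therefore cannot be told apart. Cap-F mice received OVA in the same way and ate feed with control particles that carry no oligodeoxynucleotide. ODNcap-F mice received OVA and ate feed with particles that carry CpG oligodeoxynucleotides. The mice were held under controlled light, but the light schedule and the hour of collection are not given in the sources used here. Each mouse was sampled once, so a shift in phase, a change in amplitude and a change in level cannot be told apart. The numbering of the array files, and no sample label, places all 8 arrays on 1 slide, with NT beside Ctrl-F in its first row and Cap-F beside ODNcap-F in its second. If so, row and group cannot be told apart where a comparison crosses rows. The labelled tissue was checked against 8 lung markers, among them the surfactant genes Sftpc and Sftpb, and all 8 were well above background on all 8 arrays.

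The mammalian clock is a feedback loop of transcription that runs in nearly every cell, including those of the lung. Arntl pairs with Clock or with Npas2 and binds E-box elements, which switches on the Per and Cry genes, Ciart, Nr1d1, Nr1d2 and Dbp. The Per and Cry proteins then repress the Arntl complex, while the Nr1d proteins repress Arntl itself, so that in tissues with a running clock Arntl and Npas2 peak at about the opposite time of day to Nr1d1 and Dbp. Cry1 peaks later than the Per genes. A comparison of activators with repressors at 1 time therefore asks whether both sides of the loop moved, and in which directions.

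Promoters of 4 members are shown because they hold elements through which clock factors are known to act. A RefSeq promoter (GRCm38.p6) was found for 9 of the 10 members, with 11 start sites, and not for Per2. The 250 bases before each start were searched on both strands for the E-box CACGTG, the related CACGTT and the D-box, which Dbp binds, as TTATGTAA or TTACGTAA. Capitals mark the matches. Each sequence is written 5′ to 3′ on the strand of its gene, here the minus strand, and stops where the annotated gene begins. The regions are chr3:95882258-95882478, chr4:151044708-151044915, chr10:85185055-85185304 and chr11:98775378-98775627.
Ciart: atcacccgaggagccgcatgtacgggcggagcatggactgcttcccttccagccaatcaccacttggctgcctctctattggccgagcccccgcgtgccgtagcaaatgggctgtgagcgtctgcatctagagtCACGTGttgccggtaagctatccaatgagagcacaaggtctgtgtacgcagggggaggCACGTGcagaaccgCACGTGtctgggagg
Per3: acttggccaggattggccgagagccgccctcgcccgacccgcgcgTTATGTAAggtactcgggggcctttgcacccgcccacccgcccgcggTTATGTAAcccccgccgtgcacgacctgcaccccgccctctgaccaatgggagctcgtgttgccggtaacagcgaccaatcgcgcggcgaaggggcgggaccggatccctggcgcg
Cry1: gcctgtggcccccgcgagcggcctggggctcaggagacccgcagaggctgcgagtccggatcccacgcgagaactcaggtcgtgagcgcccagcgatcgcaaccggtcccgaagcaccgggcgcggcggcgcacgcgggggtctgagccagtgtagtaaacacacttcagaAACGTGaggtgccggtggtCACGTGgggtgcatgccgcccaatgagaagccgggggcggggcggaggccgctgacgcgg
Nr1d1: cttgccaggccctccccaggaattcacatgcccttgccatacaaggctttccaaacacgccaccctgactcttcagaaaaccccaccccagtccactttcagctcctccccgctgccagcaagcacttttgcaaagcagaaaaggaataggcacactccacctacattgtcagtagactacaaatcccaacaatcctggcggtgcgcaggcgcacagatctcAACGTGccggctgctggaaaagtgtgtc

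Ciart held 3 copies of CACGTG, which start 116, 58 and 44 bases before the start site. Of all 32851 promoters, 6.02% held at least 1 copy and 0.0609% held 3 or more. Per3 held 2 D-boxes, 205 and 158 bases before its start, where 0.931% of all promoters held at least 1 and 0.0213% held 2 or more. Cry1 held CACGTG at 60 bases and CACGTT, read on the other strand, at 79 bases. Nr1d1 held CACGTT on the other strand at 28 bases, an element found in 3.85% of all promoters. Per1 held CACGTG 166 bases before 1 of its 2 start sites, in a stretch inside the annotated gene. In these windows the letters were not found for Arntl, Npas2, Nr1d2 or Dbp.

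A gene is called here, and is said to have risen or fallen, at a Benjamini-Hochberg adjusted p under 0.05 in limma over all probes tested together with a fold change over 2. Against NT, 6 of the 10 members fell in Ctrl-F, 7 fell in Cap-F and 6 fell in ODNcap-F. Of all 28992 genes and transcripts tested, 12.2% fell in Ctrl-F, 9.87% fell in Cap-F and 10.8% fell in ODNcap-F. In limma 0 members rose in these groups, beside 10.5% of everything tested for Ctrl-F, 9.74% for Cap-F and 9.86% for ODNcap-F. Members higher than NT also numbered 0 in each group at an unadjusted p under 0.05, beside 27.9%, 26.1% and 27.1%. They numbered 0 too at an adjusted p under 0.05 by the local-pooled-error test, in which the spread of a probe is read from others of similar brightness, beside 22.2%, 19.8% and 20%. The median log2 fold change of the 9 tested members was -1.58 for Ctrl-F, -1.34 for Cap-F and -1.45 for ODNcap-F. Over everything tested it was -0.12, -0.11 and -0.12, a shift against which the members' values are to be read. In 8 of the 10 members both NT mice lay above all 6 exposed mice, as they did in 40.6% of everything tested, so separation of this kind is common on these arrays. The 3 comparisons share the same 2 NT mice. With 2 mice against 2, an exact two-sided permutation test has 0.333 as its smallest p. The number of arrays limits the precision. In whole lung, fewer cells that carry a transcript and less of it per cell cannot be told apart.

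**Figure D1:**
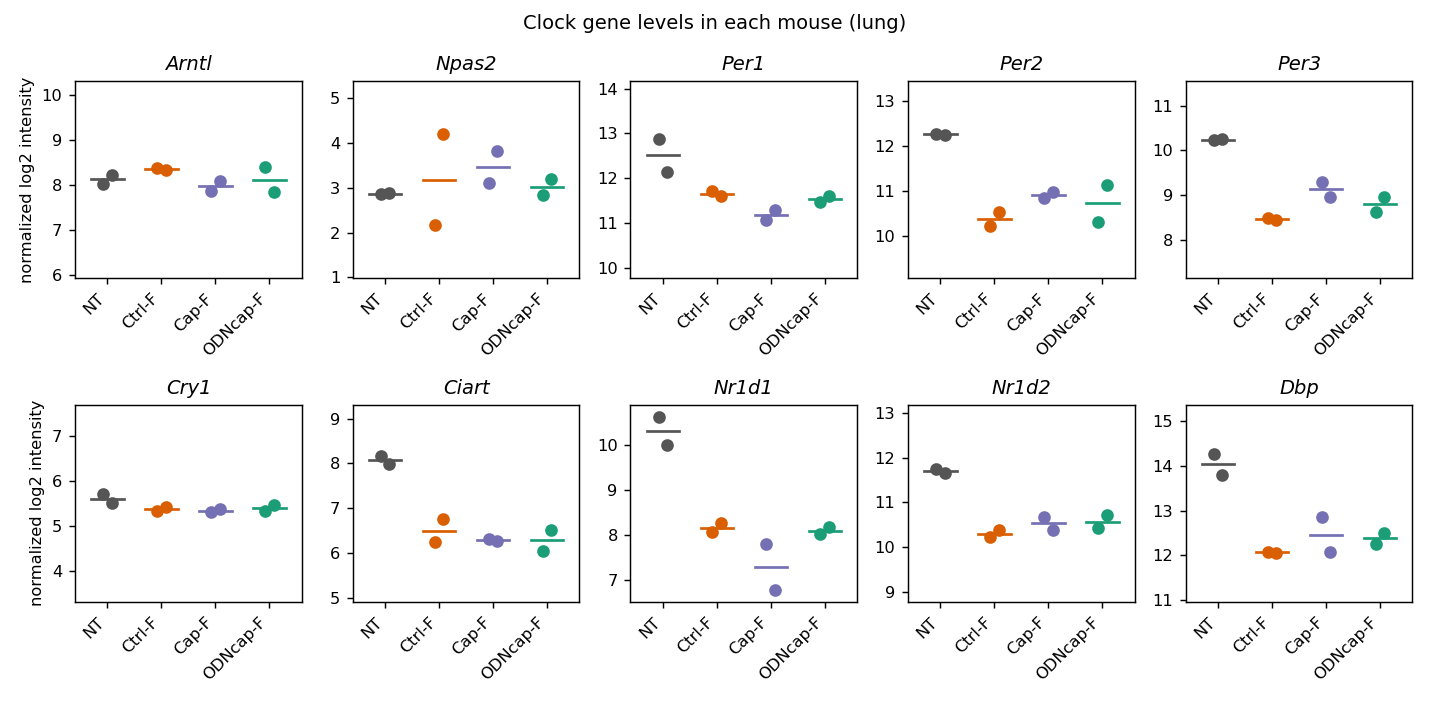
Normalized log2 intensity of the 10 clock genes (y axis, spanning the same number of log2 units in each panel) in each mouse of the 4 groups (x axis). Points are mice and lines are group means; the Npas2 probe was well above background on 0 arrays, and for the 8 tested members other than Arntl both NT mice lie above all 6 exposed mice.

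Among the activators, Arntl had log2 levels of 8.02 and 8.23 in the NT mice, 8.39 and 8.34 in Ctrl-F, 7.87 and 8.08 in Cap-F, and 8.41 and 7.84 in ODNcap-F. The NT mice lay within the range of the exposed mice, and the 2 ODNcap-F mice held the highest and the lowest level of all 8. The log2 difference from NT was 0.24 in Ctrl-F (95% interval -0.24 to 0.72, adjusted p = 0.329 in limma), -0.15 in Cap-F (-0.63 to 0.33, adjusted p = 0.533) and -0.01 in ODNcap-F (-0.48 to 0.47, adjusted p = 0.984). These intervals hold no change of 2-fold, and they do hold smaller changes in both directions. The other 2 Arntl probes were not called in any of the 6 comparisons. Npas2, which can take the place of Clock beside Arntl, had 1 probe, not well above background on any of the 8 arrays, and gave no comparison.

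Per2, a core repressor, had log2 levels of 12.28 and 12.26 in the NT mice. Its levels were 10.23 and 10.54 in Ctrl-F, 10.85 and 10.98 in Cap-F, and 10.30 and 11.14 in ODNcap-F. All 6 exposed mice lay below both NT mice. Per2 fell 3.71-fold in Ctrl-F, 2.56-fold in Cap-F and 2.93-fold in ODNcap-F (limma adjusted p = 0.00157, 0.00659 and 0.00369). Its dimmer probe was well above background in the NT and Ctrl-F mice and in 0 mice of the other 2 groups. On it the Ctrl-F difference was -0.52 on the log2 scale (limma adjusted p = 0.0337), under 2-fold and smaller than on the brighter probe. The observed NT mean was at least 1.96-fold that of Cap-F and at least 1.78-fold that of ODNcap-F. These bounds leave out the spread between mice. The 95% limma intervals from the dim signals were -1.49 to -0.69 and -1.23 to -0.43 on the log2 scale.

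Per3, the paralogue with the 2 D-boxes shown above, had log2 levels of 10.23 and 10.25 in the NT mice, against 8.49 and 8.44 with OVA on standard feed (Ctrl-F). The levels were 9.29 and 8.96 in Cap-F and 8.64 and 8.95 in ODNcap-F, so that no exposed mouse overlapped with NT. Per3 fell 3.42-fold in Ctrl-F, 2.16-fold in Cap-F and 2.73-fold in ODNcap-F (limma adjusted p = 0.00021, 0.00135 and 0.00048). Without Cap-F mouse 2 the Cap-F difference was -0.95 on the log2 scale and no longer over 2-fold. The second Per3 probe was called in the same 3 comparisons.

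Per1, which also answers quickly to hormones and other signals, was the Per gene with the widest spread in NT, at log2 levels of 12.88 and 12.15. Its levels were 11.71 and 11.61 in Ctrl-F, 11.06 and 11.29 in Cap-F, and 11.47 and 11.61 in ODNcap-F, all below both NT mice. Per1 fell 2.54-fold in Cap-F (limma adjusted p = 0.00429). In Ctrl-F and ODNcap-F the log2 differences of -0.86 and -0.97 had adjusted p-values of 0.0214 and 0.0139 but were under 2-fold. The call in 1 group alone does not show that the groups differ, and Per1 in Cap-F differed from Ctrl-F by -0.49 (adjusted p = 0.370) and ODNcap-F from Cap-F by 0.37 (adjusted p = 0.550). The calls turned on single mice. Without NT mouse 1 the Cap-F difference was -0.97 and not called, and without NT mouse 2 the differences in Ctrl-F and ODNcap-F were -1.22 and -1.34 and called. Without ODNcap-F mouse 2 the ODNcap-F difference was -1.04 and called.

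Cry1, the late repressor, was read from 2 dim probes whose mean levels lay close together, at 5.43 and 5.42 on the log2 scale, and the probe with the higher mean log2 level stands for the gene. On that probe the NT mice had 5.70 and 5.52, the Ctrl-F mice 5.34 and 5.42, the Cap-F mice 5.31 and 5.37, and the ODNcap-F mice 5.33 and 5.46. Both NT mice lay above the exposed mice by a small margin. The log2 differences from NT were -0.23, -0.27 and -0.22 (limma adjusted p = 0.0789, 0.0494 and 0.0931). The other probe would have been chosen by mean intensity, and it gave larger differences of -0.69, -0.62 and -0.68 (adjusted p = 0.0126, 0.0205 and 0.0135). Cry1 was under 2-fold and not called on either probe. At an adjusted p under 0.05 with no fold threshold, the lower members numbered 7 for Ctrl-F, 8 for Cap-F and 7 for ODNcap-F, beside 35.7%, 32.4% and 34.9% of everything tested.

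Ciart, a repressor of the Arntl complex and the member with 3 E-boxes, had log2 levels of 8.17 and 7.99 in NT. The Ctrl-F mice had 6.23 and 6.76, the Cap-F mice 6.31 and 6.27, and the ODNcap-F mice 6.05 and 6.51. Both NT mice lay above all 6 exposed mice. Ciart fell 2.99-fold in Ctrl-F, 3.45-fold in Cap-F and 3.47-fold in ODNcap-F (limma adjusted p = 0.00147, 0.00105 and 0.000962). With normexp background correction its log2 differences shrank to -1.10, -1.20 and -1.18 and were still called. On its dimmer probe only the 2 NT mice were well above background, and Ciart was at least 2.75-fold, 2.66-fold and 2.56-fold higher in NT than in the 3 exposed groups. Such a bound sets the NT mean against the lowest signal well above background on each array of the dim group, or the dim probe's own signal where that is higher. It concerns the observed means and takes no account of the spread between mice.

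Nr1d1 and Nr1d2 (REV-ERB alpha and beta) are heme-binding receptors that repress Arntl. Nr1d1 had log2 levels of 10.63 and 10.01 in the NT mice, 8.05 and 8.27 in Ctrl-F, 7.80 and 6.77 in Cap-F, and 8.01 and 8.18 in ODNcap-F. It was the member with the largest fold change in each of the 3 comparisons, and Cap-F mouse 2 had the lowest level. Without NT mouse 1 the Nr1d1 difference in Ctrl-F was -1.85 on the log2 scale, slightly smaller than that of Per2. Nr1d1 fell 4.47-fold in Ctrl-F, 8.19-fold in Cap-F and 4.67-fold in ODNcap-F (limma adjusted p = 0.00314, 0.000941 and 0.00294). Nr1d2 had log2 levels of 11.74 and 11.65 in NT and between 10.22 and 10.71 in the 6 exposed mice. It fell 2.63-fold, 2.23-fold and 2.19-fold (adjusted p = 0.00048, 0.00113 and 0.00116), and its second probe was called in the same 3 comparisons. Without ODNcap-F mouse 1 the Nr1d2 difference in ODNcap-F was -0.98 and under 2-fold.

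Dbp, a transcription factor through which the clock drives other genes, had log2 levels of 14.27 and 13.80 in NT. The levels were 12.07 and 12.05 in Ctrl-F, 12.85 and 12.07 in Cap-F, and 12.25 and 12.50 in ODNcap-F. No exposed mouse reached the lower NT mouse. Dbp fell 3.92-fold in Ctrl-F, 2.98-fold in Cap-F and 3.15-fold in ODNcap-F (limma adjusted p = 0.00161, 0.00445 and 0.00344), and its second probe was called in the same 3 comparisons.

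**Figure D2:**
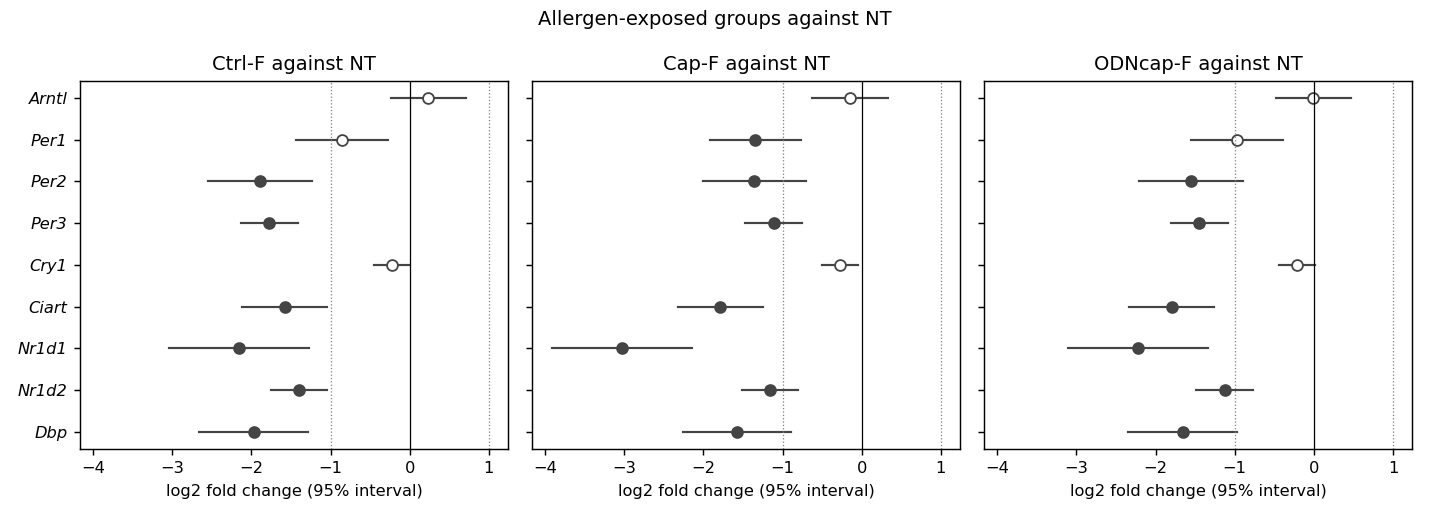
Log2 fold change of the 9 tested clock genes against NT (x axis, with 95% limma intervals as bars), with a panel for each of the 3 groups given OVA. Filled points were called, open points were not, and dotted lines mark a 2-fold change; Arntl lies at 0.24, -0.15 and -0.01.

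To set the activator beside the repressors and outputs in each mouse, every gene was centred on the mean of the 2 NT mice, and the mean of Per1, Per2, Per3, Ciart, Nr1d1, Nr1d2 and Dbp was taken. Cry1, known to peak later, was kept by itself. These values are a description with no test, and the 7 genes are also those called against NT in at least 1 group. The mean of the 7 genes was -1.74 and -1.58 for Ctrl-F, -1.47 and -1.77 in Cap-F, and -1.71 and -1.36 in ODNcap-F. Arntl in the same mice was 0.26 and 0.22, -0.26 and -0.05, and 0.28 and -0.29. The mean of the 7 genes was low in all 6 exposed mice, and Arntl was above the NT mean in 3 of them and below it in 3. Cry1 was -0.27 and -0.19 for Ctrl-F, -0.30 and -0.24 in Cap-F, and -0.28 and -0.15 in ODNcap-F, closer to NT than the mean of the 7 genes in each of the 6 mice. The difference between Arntl and the 7 genes, relative to NT, was 1.90 for Ctrl-F, 1.47 for Cap-F and 1.53 for ODNcap-F, a difference in which the 7 genes had the larger part. With Npas2 averaged into the activators, as first planned, it was 1.94, 1.85 and 1.61, but the Npas2 probe was not above background.

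Mice of one group also differed from each other. In NT, Arntl in mouse 1 was -0.21 relative to mouse 2, where the mean of the 7 genes was 0.30, and 6 of the 7 genes lay on the opposite side to Arntl. In ODNcap-F, Arntl was higher by 0.57 in mouse 1 and the mean of the 7 genes was -0.35 relative to mouse 2, with 7 of 7 genes opposite to Arntl. The count was 5 of 7 in Cap-F and 4 of 7 in Ctrl-F, whose mice differed in Arntl by 0.04. The share of everything tested that lay opposite to Arntl is not given here, so these counts are a description only. Some differences were small, such as 0.02 for Per2 in NT and 0.04 for Ciart in Cap-F. The median absolute difference between the 2 mice over the 9 members was 0.18 for NT, 0.10 for Ctrl-F, 0.23 for Cap-F and 0.29 for ODNcap-F, beside 0.11, 0.12, 0.10 and 0.13 over everything tested.

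**Figure D3:**
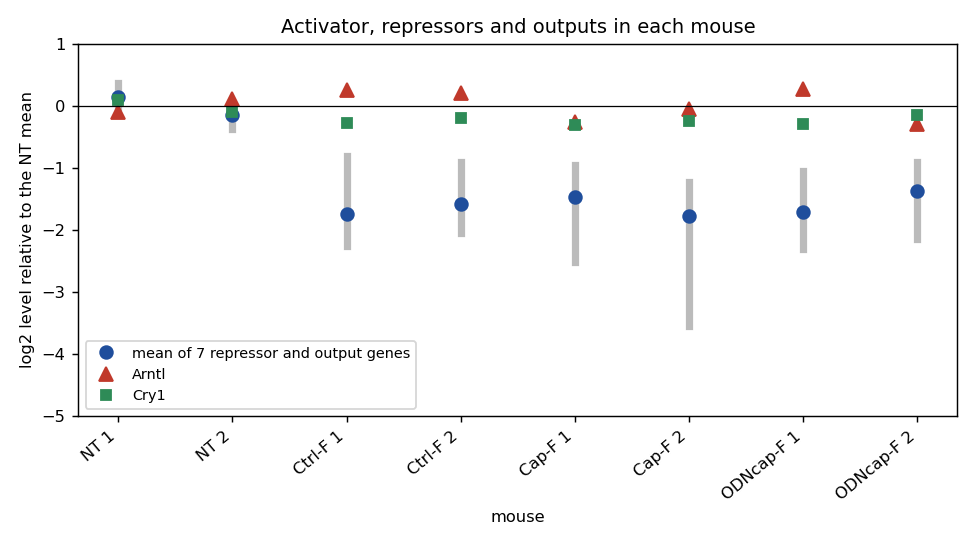
Log2 level relative to the mean of the NT mice (y axis) in each of the 8 mice (x axis) for Arntl, Cry1 and the mean of the 7 repressor and output genes. Grey bars run from the lowest to the highest of the 7 genes; the mean of the 7 lies between -1.36 and -1.77 in the 6 exposed mice, and Arntl between -0.29 and 0.28.

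Other genes of the clock were read from a list of 20, of which 19 were tested. In Ctrl-F, 6 fell, 2 rose and 11 were not called. ODNcap-F had the same counts, and in Cap-F 5 fell and 2 rose. Of everything tested, 12.2% fell and 10.5% rose in Ctrl-F, 9.87% and 9.74% in Cap-F, and 10.8% and 9.86% in ODNcap-F. A rise in 2 of 19 genes is near the share of everything tested that rose. Cry2, Tef, Hlf, Rora and Btrc fell in each of the 3 groups, and Nfil3 and Bhlhe40 rose in each. Cry2, a repressor beside Cry1, fell by 1.89 on the log2 scale in Ctrl-F, by 1.66 in Cap-F and by 1.60 in ODNcap-F. Tef and Hlf, which bind the same D-box as Dbp, fell by 1.71 and 1.74 on the log2 scale in Ctrl-F. Nfil3, which represses at the D-box and is known to cycle opposite to Dbp, rose by 2.05 in Ctrl-F, by 1.69 in Cap-F and by 1.91 in ODNcap-F, the last with an adjusted p of 5.13e-05 in limma. Its log2 levels were 9.22 and 9.46 in NT and between 10.99 and 11.43 in the exposed mice. Clock, the partner of Arntl and named for that after its values were seen, had log2 differences of -0.78, -0.72 and -0.82 with adjusted p-values of 0.000422, 0.00067 and 0.000395, all under 2-fold. Arntl2, the paralogue of Arntl and named in the same way, had differences in the other direction, 0.84, 0.90 and 0.73 (adjusted p = 0.00327, 0.0029 and 0.00608), also under 2-fold. Rora, which activates Arntl at the element that the Nr1d proteins repress, fell by 1.43, 1.25 and 1.42. Bhlhe40, a repressor at E-boxes that also answers to immune signals, rose by 1.22, 1.30 and 1.31. The median over the 19 genes was -0.64 in Ctrl-F.

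Profiles over the 8 mice were compared between genes as the root mean square difference of mean-centred log2 levels, among 15181 named genes well above background on all arrays. The 5 genes outside the members closest to Dbp were 9330188P03Rik, Hspa12a, Flrt1, Tef and Magix, with differences from 0.20 to 0.22, and the closest member was Per3 at rank 12. The 5 closest to Arntl were Gm11937, Cwc27, Gpr19, Spry4 and Cd207, with differences from 0.10 to 0.11. The levels of Arntl itself had a root mean square of 0.21 around their mean, and those of Dbp 0.80.

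Between the feeds, all with OVA, limma called 0 of the 9 tested members in each of Cap-F against Ctrl-F, ODNcap-F against Ctrl-F, and ODNcap-F against Cap-F. Of everything tested, 0.00345% was called in Cap-F against Ctrl-F, 0% in ODNcap-F against Ctrl-F and 0.00345% in ODNcap-F against Cap-F. At an unadjusted p under 0.05 the members counted 1, 0 and 0, beside 16.6%, 6.78% and 13.4% of everything tested. By the local-pooled-error test, an adjusted p under 0.05 was reached by 2, 0 and 1 members, beside 1.48%, 0.838% and 0.855%, the 2 being Per3 and Nr1d1 and the 1 being Nr1d1. With a fold change over 2 as well, 0 members passed by an unadjusted p (beside 0.98%, 0.655% and 0.642%) or by the local-pooled-error test (beside 0.486%, 0.459% and 0.362%). The difference of Per3 between Cap-F and Ctrl-F was 0.66 on the log2 scale (95% interval 0.30 to 1.02, limma adjusted p = 0.169). These counts read 1 probe per gene. The second Per3 probe was also at an unadjusted p under 0.05 in that comparison, at 0.69 (adjusted p = 0.109), and in ODNcap-F against Ctrl-F, at 0.52 (0.29 to 0.75, adjusted p = 0.544). The dimmer Per2 probe was not well above background in Cap-F, so only a bound can be given. On it the observed Ctrl-F mean was at least 1.37-fold that of Cap-F, a bound that leaves out the spread between mice. The brighter Per2 probe differed in the other direction, at 0.53 in Cap-F against Ctrl-F. Nr1d1 differed by -0.87 between Cap-F and Ctrl-F (-1.76 to 0.01, adjusted p = 0.313) and by 0.81 between ODNcap-F and Cap-F (-0.08 to 1.69, adjusted p = 0.414). Both values rest largely on Cap-F mouse 2, and without it they were -0.36 and 0.30, while without Cap-F mouse 1 they were -1.39 and 1.32. For Per2 the difference between ODNcap-F and Ctrl-F was 0.34 (-0.31 to 0.99, adjusted p = 0.840), an interval that holds increases of nearly 2-fold.

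**Figure D4:**
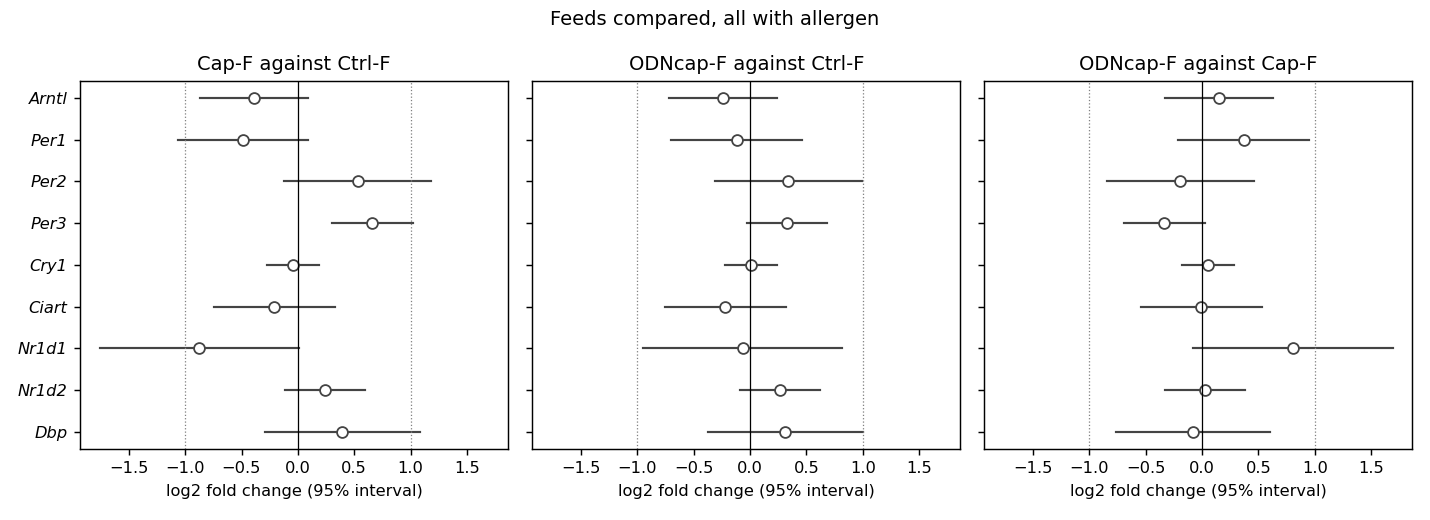
Log2 fold change of the 9 tested clock genes (x axis, with 95% limma intervals as bars) between feeds in mice exposed to OVA. Open points were not called, and dotted lines mark a 2-fold change; the widest intervals are those of Nr1d1.

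Genes of other programs and cell types moved in the same mice, and their part in the clock gene result was not tested. Of 10 glucocorticoid response genes, 5 fell in each exposed group, the same Tsc22d3, Zbtb16, Klf9, Dusp1 and Pdk4 each time. Zbtb16 fell 4.33-fold for Ctrl-F, 14.3-fold for Cap-F and 3.99-fold for ODNcap-F, and Pdk4 was at -1.45, -2.73 and -1.45 on the log2 scale. Between Cap-F and Ctrl-F neither passed the test in limma (adjusted p = 0.215 for Zbtb16 and 0.165 for Pdk4), and both passed the local-pooled-error test. Mt2 rose by 1.19 in Ctrl-F and by 1.34 in ODNcap-F, and in Cap-F it was 0.79 and not called. The list did not move as a whole. At a limma adjusted p under 0.05 with no fold threshold, 6 were lower in each group, and 3, 2 and 3 were higher. Mt1 differed from NT by 0.71, 0.56 and 0.78 on the log2 scale. Fkbp5 differed by 0.54, 0.25 and 0.47, of which the Cap-F value did not pass. Of 8 immediate early genes, Atf3 rose by 3.36 in Ctrl-F and the other 7 were not called. The 10 leukocyte markers, led by Jchain, had a summed intensity of 12091 and 10147 in the NT mice and between 106026 and 114790 in the exposed mice, and 6 rose in Ctrl-F, 8 rose in Cap-F and 6 rose in ODNcap-F. Jchain alone made up 74.4% of the leukocyte sum. Its log2 difference in Ctrl-F was 6.09, where the median of the 10 markers was 2.12 and the lowest was 0.44. The 6 mucous cell markers, led by Clca1, summed to 1703 and 3170 in NT and to between 163468 and 246933 in the exposed mice, and all 6 rose in each group. The 8 lung markers, led by Sftpc with 32.1% of the sum, summed to 705192 and 704571 in NT and to between 589699 and 617106 in the exposed mice. Only Cldn5 fell, in each group. At a limma adjusted p under 0.05 with no fold threshold, 4 of the 8 were lower in each group. That compares with 35.7%, 32.4% and 34.9% of everything tested. Among the 4 was Ager, at -0.84, -0.92 and -0.75 on the log2 scale.

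The 8 cardiomyocyte markers, led by Myh6, summed to 25154 and 12035 in the NT mice, 2562 and 4072 in Ctrl-F, 2998 and 13055 in Cap-F, and 9413 and 15012 in ODNcap-F, and by limma 5 fell in Ctrl-F, 0 fell in Cap-F and 1 fell in ODNcap-F. In Cap-F 1 of them, lower, had an unadjusted p under 0.05. The local-pooled-error test at any fold change passed 7 in Ctrl-F, all lower, 6 in Cap-F, of which Actc1 was higher, and 6 in ODNcap-F, of which Nppa was higher. The 5 adipocyte markers, led by Cfd, summed to 4239 and 3039 in NT, 131.9 and 400.3 for Ctrl-F, 229.0 and 1820 in Cap-F, and 1355 and 2713 in ODNcap-F, with Ucp1 not well above background on any array, and of 4 tested 4 fell in Ctrl-F, 2 fell in Cap-F and 1 fell in ODNcap-F. By the local-pooled-error test the adipocyte counts were 4, 4 and 2, all lower. All 6 exposed mice lay below both NT mice in the adipocyte sum, and both Ctrl-F mice, Cap-F mouse 1 and ODNcap-F mouse 1 did so in the cardiomyocyte sum. The 5 smooth muscle markers, led by Tagln, summed to between 26450 and 41884 over all 8 mice and 0 were called in limma against NT. At an unadjusted p under 0.05, in either direction, they numbered 0 for Ctrl-F, 1 for Cap-F and 1 for ODNcap-F, and by the local-pooled-error test 4, 2 and 1.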

How the data were processed

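The authors deposited, for each of the 8 arrays, the background-subtracted intensity of every spot from Agilent Feature Extraction 11.0, not normalized between arrays, with raw spot and background intensity and flags. They also deposited log2 values for 32312 probes, quantile normalized over the arrays. For comparison, log2 values were recomputed with quantile normalization over these 32312 probes only. Their median distance from the deposited values was 3.23e-07 and the largest was 0.125, which sets the scale of the deposited values. Each deposited column had a median of 8.55, so they were not centred on 0. The values tested here were normalized over all probes and were not the ones compared.

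Control spots were left out and 792 flagged spot values were set to missing, of 59305 spots per array. Values were transformed to log2, averaged into 56605 probes and quantile normalized. A probe was tested if some group had it well above background in both mice, which held for 37116. On single arrays, 61.3% to 65.0% of probes were well above background, and 0 spots were saturated. Accessions were matched to names in a RefSeq table, which named 32994 probes (58.3%). A gene was read from its brightest probe, the one with the highest mean log2 level.

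A single limma model of the 8 arrays had no covariate (limma 3.58.1, R 4.3.3, data.table package 1.17.8) and gave 6 comparisons. The local-pooled-error test of the study's methods was rebuilt (100 intensity bins, spline of 10 degrees of freedom) as an alternative. Promoters were read with Python 3.11 and figures drawn with matplotlib 3.10.9. Other scalings, background corrections, filters and test settings, and leaving out each mouse, were tried as alternatives. Of each list every gene was counted, and those called, or the 4 with the largest absolute change in Ctrl-F, could be named. Because Npas2 was not above background, Arntl alone stood for the activators, a choice made after seeing the data. The members and lists were chosen with earlier results of these data known.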

Additional observations from a re-analysis of the deposited data

Results flagged for a closer look

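Arntl lay above the NT mean in both Ctrl-F mice (0.26 and 0.22 on the log2 scale) and below it in both Cap-F mice (-0.26 and -0.05), so the 2 groups lay on opposite sides of that mean. Cap-F mouse 2 lay between the 2 NT mice, and neither group passed the test against NT (0.24 for Ctrl-F, limma adjusted p = 0.329, and -0.15 for Cap-F, adjusted p = 0.533). The difference of Cap-F from Ctrl-F was -0.39 (95% interval -0.87 to 0.09) and did not pass the test (limma adjusted p = 0.383).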

How the results depend on the processing

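Over 21 alternatives the number of clock genes called stayed between 6 and 7 in Ctrl-F, 6 and 8 in Cap-F, and 5 and 7 in ODNcap-F against NT, and at 0 in each of the 3 feed comparisons. With the replicate number as a block (replicate block) the counts were 6, 7, 6 and 0 in each feed comparison, so the block changed no count. Differences between mouse 1 and mouse 2 correlated across probes by -0.01 to 0.16 between groups, and the labels give the mice of different groups nothing shared but a number. Per2, Ciart, Nr1d1 and Dbp were called against NT under all 21 alternatives in all 3 groups. With normexp background correction the Ciart differences were -1.10, -1.20 and -1.18, and with the mean of all probes Per2 in Ctrl-F was -1.20. Of 567 member values against NT, 3 lost a call, 6 gained one and 0 called values changed sign. Among values that were called neither before nor after, 3 against NT and 30 between feeds changed sign, among them Arntl in ODNcap-F, which ranged from -0.29 to 0.28. The difference between Arntl and the 7 genes with 1 mouse left out ranged against NT from 1.64 to 2.15 for Ctrl-F, 1.21 to 1.73 for Cap-F and 1.08 to 1.99 for ODNcap-F. Between feeds it ranged from -0.82 to 0.10 for ODNcap-F against Ctrl-F, -0.40 to 0.52 for ODNcap-F against Cap-F and -0.68 to -0.17 for Cap-F against Ctrl-F. With Npas2 included, Cap-F against Ctrl-F moved from -0.43 to -0.09 and ODNcap-F against Cap-F from 0.06 to -0.24. A lone mouse left in a group was taken to have the spread seen in the rest. The choice between the Cry1 probes by mean intensity was added after seeing the data. Dim probes limit what can be said of Cry1 and Npas2.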
